A study of Mus musculus with 6 samples.

Results

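The genes of the lysosome and of thyroglobulin breakdown were examined in the thyroid gland of the mouse. They comprised 39 genes taken from a list of cathepsins, lysosomal hydrolases, lysosomal membrane proteins, the vacuolar ATPase, megalin and lysosome regulators, out of 21878 genes counted. All 39 had enough reads to be tested, and 33 of them carried the KEGG term Lysosome in the deposited annotation, which named 123 genes.

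RNA-seq had been performed on thyroid glands of female mice at 12 weeks of age, with 3 mice labelled *Thy-Tet1*+/+ and 3 mice labelled *Thy-Tet1*-/-. The second group carries floxed *Tet1* alleles recombined by a Cre transgene that is active in follicular epithelial cells, so that other cells of the gland keep the gene. The first group are wild-type (WT) littermates. The sample titles call the first group control and the second treatment, and the sources used here name no treatment other than the genotype. The comparison addresses how loss of the 5-methylcytosine dioxygenase TET1 alters gene expression in the gland. Counts of *Tet1* itself went against the labels, at 5.69, 3.80 and 3.44 counts per 1000000 counts of the scaled library (CPM) in the WT libraries and 9.36, 9.59 and 12.2 CPM in the libraries labelled *Thy-Tet1*-/-, and reads on its separate exons were not analysed here. The libraries are therefore called WT and KO-labelled, and every direction below is drawn between labels.

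Thyroid hormone is released by proteolysis. Follicular cells take thyroglobulin, the iodinated precursor protein stored in the follicle lumen, back up by endocytosis, and cathepsins in endosomes and lysosomes cut it until thyroxine and triiodothyronine are freed. The vacuolar ATPase acidifies these compartments, mannose 6-phosphate receptors deliver newly made hydrolases to them, and TFEB and TFE3 are transcription factors of lysosomal genes.

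Total counts were 8867683 to 19950898 per library, and 3 counts, the smallest level taken as distinct from 0, equalled 0.152 to 0.356 CPM (this covers counting error only). Thyroglobulin (*Tg*) took 21.2% to 29.4% of all counts and the 39 lysosomal genes together took 0.745% to 0.888%. The tissue label was checked against 11 follicular cell markers, all of which had reads, with *Slc26a4* at only 0.0507 to 0.277 CPM. Skeletal muscle markers summed to 14.5 to 5694 CPM and parathyroid markers to 146 to 12948 CPM, with overlapping groups. The lymphocyte markers summed to 50.6 CPM in WT library 1 and 187 CPM in KO-labelled library 3, against at most 2.03 CPM in the other 4 libraries. Single genes of other lists differed between the labels. Among all tested genes, 26.8% had groups without overlap. The limits the study used for its calls (a 1.5-fold difference with p under 0.05 before adjustment) were passed by 9.2%. Of the 11 follicular markers 6 had groups without overlap, *Slc26a4* at its low level among them, and 3 passed. The list, nearly all of it *Tg*, summed to 256627 to 316793 CPM in WT and 193561 to 239603 CPM in KO-labelled libraries. Of 6 fibroblast markers 3 had groups without overlap and 1 passed (sums of 883 to 1111 CPM against 939 to 1122 CPM), and of 5 adipocyte markers 2 passed (24.1 to 222 CPM against 96.8 to 680 CPM). Of 4 Schwann cell markers 2 had groups without overlap and 1 passed (102 to 200 CPM against 73.3 to 138 CPM). In the follicular, fibroblast and Schwann cell lists the genes without overlap went both ways. The sums of these lists therefore do not give the direction of their genes. Of 5 C cell markers 1 had groups without overlap and passed, and of 10 macrophage markers 1 passed. The part of these cell types and neighbouring tissues in the values below was not tested. Whether the mice were processed in batches is not given in the sources used here.

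Differences were estimated with edgeR's quasi-likelihood test after scaling of the libraries by the trimmed mean of M-values (TMM). They are given as log2 fold changes, KO-labelled minus WT. Of the 39 genes, 36 had a log2 fold change below the median log2 fold change of all tested genes. The 3 above it were *Tfeb*, *Tfe3* and *Mcoln1*. The median log2 fold change was -0.23 for the lysosomal genes and 0.00 for all 14143 tested genes. At the limits the study states for its calls, a fold change above 1.5, up or down, together with an unadjusted p under 0.05, 2 of the 39 genes were called, *Tfeb* higher and *Hexa* lower. This is 5.13% of them, where 9.2% of all tested genes were called (5.54% higher and 3.66% lower). In bulk tissue, fewer cells of a type and less RNA per cell cannot be told apart.

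An unadjusted p under 0.05 was reached by 11 of the 39 genes, against 18.9% of all tested genes. After Benjamini-Hochberg adjustment over all tested genes edgeR called 0 of them at an adjusted p under 0.05 (0.113% of all tested genes), limma-voom called 0, and the Wald test of DESeq2 called 4, namely *Ctsa*, *Lamp2*, *Atp6ap1* and *Tfeb*. DESeq2 called 1192 genes in all where edgeR called 16. The 3 libraries of each group were also compared directly. For 17 of the 39 genes the WT and KO-labelled values did not overlap, against 26.8% of all tested genes. In 14 of these the KO-labelled libraries were lower (14.4% of all tested genes) and in 3 they were higher (12.5%). For any single gene without overlap a two-sided exact permutation test gives p = 0.10, the smallest that 3 mice against 3 allow.

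The sign of these differences depended on how the libraries were scaled, while the position relative to other genes did not, since scaling shifts all genes of a library together. Scaling to 10 epithelial marker genes (keratins, claudins, *Epcam*, *Cdh1* and *Elf3*) moved the median of all tested genes to 0.37 and that of the lysosomal genes to 0.13, and 30 of the 39 then had a positive log2 fold change. Scaling to library totals moved these medians to 0.19 and -0.048. Under each of these scalings 36 of the 39 log2 fold changes stayed below the median of all tested genes, and those of *Tfeb*, *Tfe3* and *Mcoln1* stayed above it. The count of genes without overlap was more fragile. With library totals 4 genes were lower (*Ctsa*, *Lamp2*, *Atp6v1a* and *Atp6ap1*) and 3 higher, or 10.3% and 7.69%, against 4.96% and 23.4% of all tested genes. With the epithelial genes 0 were lower and 3 higher, against 1.10% and 29.4%. *Tfeb*, *Tfe3* and *Mcoln1* were the 3 higher genes with TMM and with both other scalings, in each case a smaller share than among all tested genes. The epithelial genes themselves summed to 2030 to 2909 CPM in the WT and 1615 to 1709 CPM in the KO-labelled libraries, and 4 of the 10 were called. The plot of medians under each processing shows both values side by side.

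**Figure D1:**
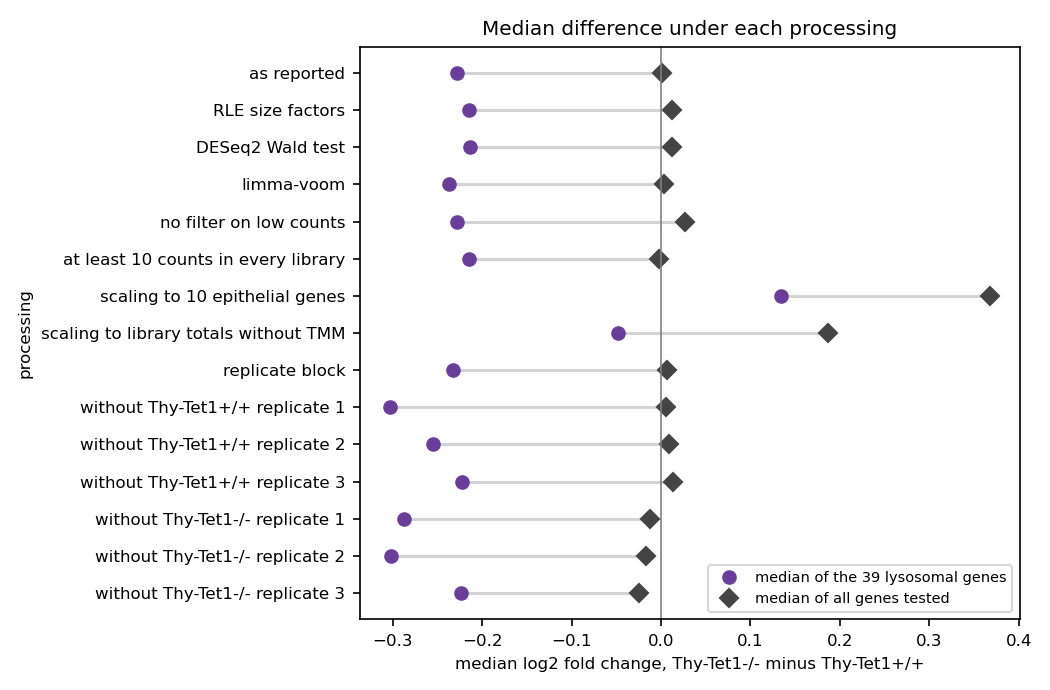
Median log2 fold change (x axis, KO-labelled minus WT) of the 39 lysosomal genes (circles) and of all tested genes (diamonds) under each processing named on the y axis. The circle lies to the left of the diamond in every line, by 0.20 to 0.31 on the log2 scale, while scaling to 10 epithelial genes places both above 0.

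The transcription factors are described first. *Tfeb* (NCBI gene 21425, chr17:47737030-47792419, plus strand, mm10) encodes a factor that enters the nucleus when the kinase complex mTORC1 is inactive and drives lysosomal and autophagy genes. It had 16.1, 17.3 and 18.9 CPM in the WT and 30.7, 32.4 and 21 CPM in the KO-labelled libraries, which rested on 136 to 563 reads per library. All 3 KO-labelled libraries were above all 3 WT libraries, the third by little. Its mean of 28.0 ± 6.11 CPM (SD, n = 3) was 161% of the WT mean of 17.5 ± 1.40 CPM (SD, n = 3). The log2 fold change was 0.68 with a standard error of 0.19 (edgeR adjusted p = 0.141, DESeq2 adjusted p = 0.0375). Without KO-labelled library 2 it was 0.56, under the limit of the study, and over all alternatives the adjusted p was 0.0375 to 0.398.

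*Tfe3* (NCBI gene 209446), a paralogue with the same DNA-binding preference, showed a smaller difference. Its level was 29.8, 32.3 and 29.7 CPM in the WT and 35, 36.5 and 33.0 CPM in the KO-labelled libraries, again without overlap. The log2 fold change was 0.19 with a standard error of 0.11 and did not pass the test (edgeR adjusted p = 0.397). *Mcoln1* (NCBI gene 94178) encodes the lysosomal calcium channel whose opening is known to activate the phosphatase calcineurin and with it TFEB. With no library left out it was the only lysosomal membrane gene above the median of all tested genes. It had 25.8, 25.8 and 26.7 CPM in WT against 28.5, 29.1 and 30.6 CPM in KO-labelled libraries. Its groups did not overlap, but the log2 fold change of 0.17 with a standard error of 0.10 did not pass the test either (edgeR adjusted p = 0.427).

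**Figure D2:**
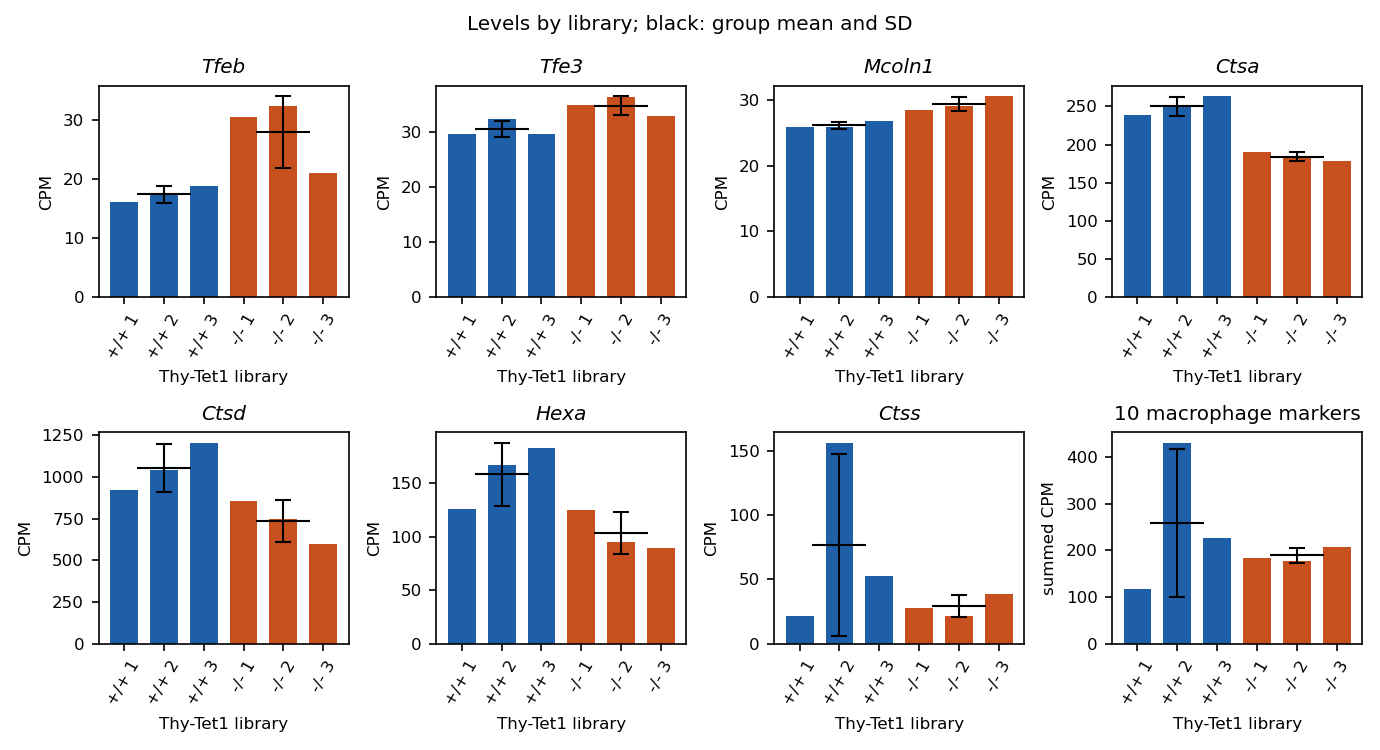
Level of 7 lysosomal genes and the summed level of 10 macrophage markers (y axes, CPM from 0, different for each gene) in each WT (+/+, blue) and KO-labelled (-/-, orange) library, with the group mean and SD in black. *Tfeb*, *Tfe3* and *Mcoln1* are higher in every KO-labelled library, *Ctsa*, *Ctsd* and *Hexa* are lower with this TMM scaling (*Hexa* by 0.62 on the log2 scale), and *Ctss* has its highest bar, 157 CPM, in the WT library with the highest macrophage sum.

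TFEB and TFE3 recognise the E-box CACGTG, and many lysosomal promoters carry a longer form of it known as the CLEAR element. The promoters of the lysosomal genes, 250 bases before to 50 bases after the start, were therefore read from RefSeq (GRCm38.p6) and searched for CACGTG, for TCACGTGA and for the CLEAR consensus, which is TCACGTGA with a G before it and a C after it. Each of these reads the same on both strands and contains the shorter ones. The start is that of the RefSeq promoter, which for *Ctsa* and *Ctsd* lies inside the GENCODE span of the gene given further below. Of the 39 genes 32 had a promoter in this set, and 13 of the 32 (40.6%) held CACGTG, against 7.15% of all 32851 promoters and 11.4% of the promoters of tested genes. TCACGTGA was found in 7 of 32 (21.9%, against 0.974% of all promoters and 2.01% of those of tested genes) and the CLEAR consensus in 1 of 32 (3.12%, against 0.326% and 0.730%). Among the 81 promoters of the further lysosomal genes described at the end, CACGTG was in 22.2%, TCACGTGA in 8.64% and the CLEAR consensus in 3.70%. The windows below, 26 bases each with CACGTG in capitals, come from the 6 genes that held the motif and whose groups did not overlap, and are given 5′ to 3′ on the strand of the gene.
*Ctsa*, chr2:164833751-164833776, plus strand, 12 bases before the start: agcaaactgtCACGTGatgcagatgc
*Ctsd*, chr7:142387910-142387935, minus strand, 98 bases before the start: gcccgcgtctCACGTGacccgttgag
*Lamp1*, chr8:13159123-13159148, plus strand, 28 bases before the start: tgccgactggCACGTGaccacatcac
*Igf2r*, chr17:12769698-12769723, minus strand, 7 bases before the start: cgactcaggtCACGTGacgctccggg
*Atp6v1a*, chr16:44139375-44139400, minus strand, 131 bases before the start: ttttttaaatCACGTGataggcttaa
*Mcoln1*, chr8:3500464-3500489, plus strand, 45 bases before the start: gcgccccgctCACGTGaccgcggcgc
*Lamp1* held 4 copies of CACGTG in its promoter, and *Ctsa*, *Ctsd*, *Mcoln1* and *Igf2r* each held more than 1, of which each window shows 1. *Igf2r* held the full CLEAR consensus. The motif did not separate the directions, since it was present in *Mcoln1*, which was higher, and in the other 5, which were lower with TMM scaling. The remaining genes with CACGTG were *Ctsl*, *Ctsf*, *Lgmn*, *Gla*, *Glb1*, *Gaa* and *Atp6v0d1*, all with overlapping groups. Over the 13 genes with the motif the median log2 fold change was -0.29, and over the 19 without it -0.18. A match is a description of the letters and not a binding site.

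Among the receptors that bring proteins to the lysosome, *Lrp2* (NCBI gene 14725) encodes megalin, an apical receptor of follicular cells that binds thyroglobulin. It had 170, 154 and 183 CPM in WT against 101, 161 and 111 CPM in KO-labelled libraries, so that KO-labelled library 2 lay within the WT range. The log2 fold change was -0.45 with a standard error of 0.19 (edgeR adjusted p = 0.276), and without that library it was -0.68 and past the limits of the study. The mannose 6-phosphate receptors were closer in level between the groups. *Igf2r*, the cation-independent receptor, had 143, 139 and 115 CPM in WT against 106, 109 and 109 CPM in KO-labelled libraries. *M6pr*, the cation-dependent one, had 178, 160 and 148 CPM against 139, 141 and 141 CPM. For both the groups did not overlap with TMM scaling and the 3 KO-labelled values were close together. The log2 fold changes were -0.29 and -0.21 (edgeR adjusted p = 0.247 and 0.348).

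The 8 cysteine cathepsins all had log2 fold changes below the median of all tested genes, and their median was -0.19 under TMM. The limits of the study called 0 of the 8 (2 had an unadjusted edgeR p under 0.05). *Ctsk* lay above the median of all tested genes without WT library 2, and *Ctsf* without KO-labelled library 1 or 3. *Ctsb* (NCBI gene 13030), an endopeptidase that begins thyroglobulin cleavage, had 946, 868 and 837 CPM in WT against 735, 671 and 504 CPM in KO-labelled libraries. *Ctsh*, an aminopeptidase, had 124, 113 and 166 CPM against 92.0, 83.1 and 112 CPM. These 2 genes had groups without overlap with TMM scaling, although for *Ctsh* the highest KO-labelled and the lowest WT value nearly met. Their log2 fold changes were -0.47 and -0.49 with standard errors of 0.17 and 0.19 (edgeR adjusted p = 0.210 and 0.231). *Ctsb* passed the limits of the study without KO-labelled library 1 (-0.61), and *Ctsh* did so without WT library 2 (-0.60) or KO-labelled library 3 (-0.62). Up to 774 bases of *Ctsb* exons overlap *Fdft1* on the opposite strand, and whether reads were counted by strand is not stated.

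*Ctsl* and *Ctsk*, endopeptidases known to free thyroxine from thyroglobulin, varied more within the WT group than between the groups. *Ctsl* (NCBI gene 13039) had 410, 754 and 705 CPM in WT against 568, 481 and 622 CPM in KO-labelled libraries. Its log2 fold change was -0.16 with a standard error of 0.25 (edgeR adjusted p = 0.774), and 1742 bases of its exons overlap an opposite-strand transcript that the count table does not list. A same-strand transcript, also not listed there, overlaps 395 bases of *Ctsl* exons. *Ctsk* (NCBI gene 13038) was rare, at 41 to 214 reads per library. It had 4.86, 11.4 and 6.71 CPM against 7.79, 7.05 and 6.29 CPM, with a log2 fold change of -0.13 and a standard error of 0.34 (edgeR adjusted p = 0.878).

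*Ctss* (NCBI gene 13040), the cathepsin of antigen-presenting cells, had the lowest log2 fold change of the 39 genes and also the widest spread. It had 21.3, 157 and 52.7 CPM in WT against 28.0, 21.5 and 38.3 CPM in KO-labelled libraries. The groups overlapped, and the difference of -1.40 with a standard error of 0.66 rested on WT library 2 (edgeR adjusted p = 0.313). Without that library it was -0.35, and without WT library 1 it was -1.84 and past the limits of the study. All 10 macrophage markers had reads, and they summed to 118, 432 and 227 CPM in the WT and 183, 177 and 208 CPM in the KO-labelled libraries. *Adgre1*, a defining macrophage marker and the only 1 of the 10 past the limits of the study, had 4.98, 40.2 and 24.1 CPM against 8.11, 7.93 and 7.91 CPM. *Cx3cr1* and *Mrc1* went the other way, with log2 fold changes of 0.55 and 0.05, while the rest of the list was negative. *Cx3cr1* had 5.69, 10.4 and 5.88 CPM against 9.53, 8.70 and 14.2 CPM. WT library 2 was thus highest for *Ctss*, for the macrophage sum and for *Adgre1*, and the part of macrophages in the *Ctss* values was not tested.

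The other cysteine cathepsins were *Ctsc*, which trims dipeptides and activates granule proteases, *Ctsz*, a carboxypeptidase, and *Ctsf*. Their log2 fold changes were -0.16, -0.23 and -0.03, each with overlapping groups. *Ctsf* had the widest range within the KO-labelled group, from 38.7 to 75.8 CPM, around a WT range of 51.5 to 58.0 CPM.

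**Figure D3:**
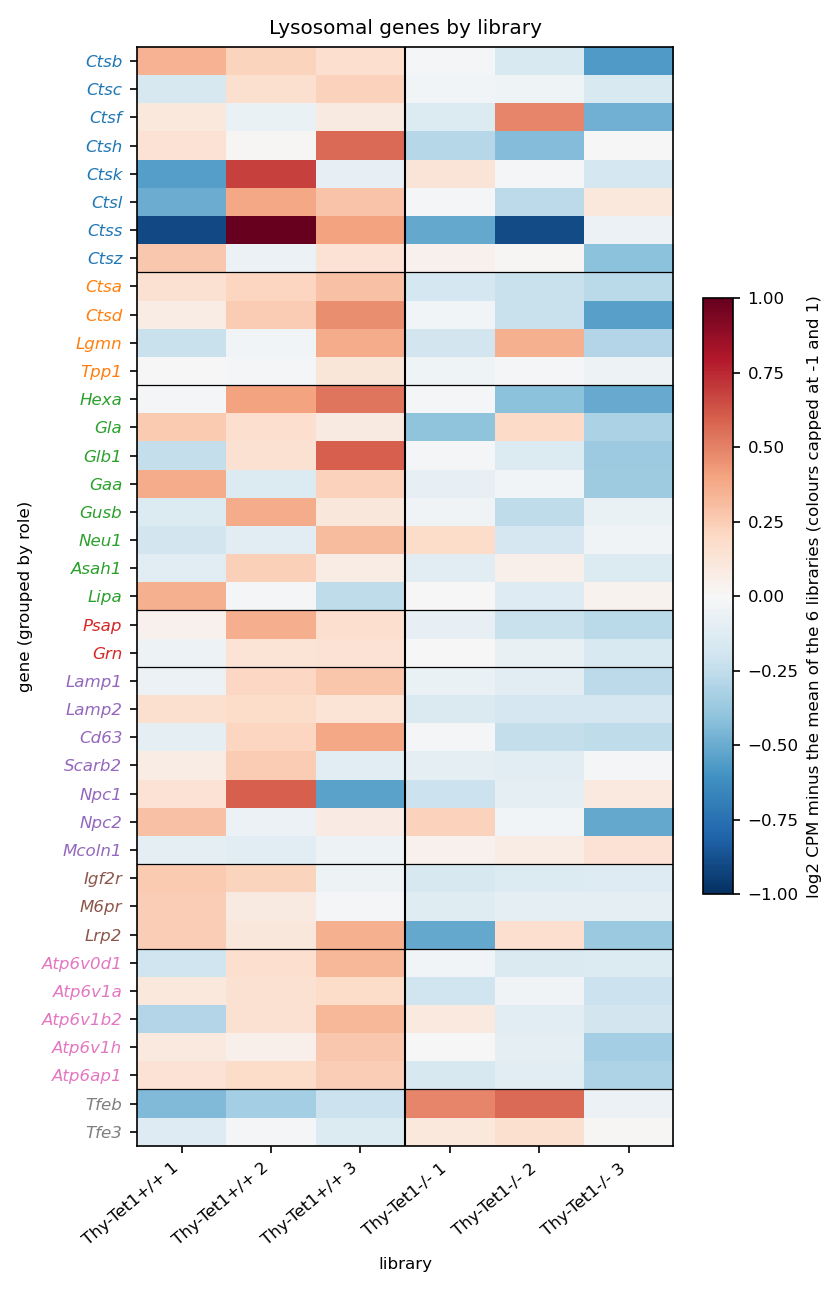
Level of each of the 39 genes (rows, grouped by role with one label colour per role) in each library (columns), as log2 CPM minus the mean over the 6 libraries, with colours capped at -1 and 1. With TMM scaling most rows turn from red in the 3 *Thy-Tet1*+/+ columns to blue in the 3 *Thy-Tet1*-/- columns, *Mcoln1*, *Tfeb* and *Tfe3* turn the other way, and *Ctss* shows 1 dark column at *Thy-Tet1*+/+ 2.

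The 4 other proteases also had log2 fold changes below the median of all tested genes, and their median was -0.26 under TMM. Of these 4, 0 were called (2 had an unadjusted edgeR p under 0.05). *Lgmn* lay above the median of all tested genes without WT library 3 or without KO-labelled library 3. *Ctsa* (NCBI gene 19025, chr2:164832873-164841032, plus strand, mm10) encodes a serine carboxypeptidase that also protects neuraminidase and beta-galactosidase in the lysosome. It had 239, 249 and 264 CPM in WT against 190, 184 and 178 CPM in KO-labelled libraries. The groups were far apart for their spread, and the mean of 184 ± 6.20 CPM (SD, n = 3) was 73.5% of the WT mean of 250.4 ± 12.5 CPM (SD, n = 3). Its log2 fold change of -0.44 with a standard error of 0.11 had the lowest p of the 39 genes (edgeR adjusted p = 0.113, DESeq2 adjusted p = 0.000898). With the epithelial scaling it was -0.08. Exons of *Pltp* and *Neurl2* on the opposite strand overlap 495 and 324 bases of *Ctsa*.

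*Ctsd* (NCBI gene 13033, chr7:142375911-142388038, minus strand, mm10), the main aspartic endopeptidase of the lysosome and one that cleaves thyroglobulin, had 920, 1040 and 1206 CPM in WT against 855, 749 and 600 CPM in KO-labelled libraries. The groups did not overlap with TMM scaling. The log2 fold change was -0.52 with a standard error of 0.18 (edgeR adjusted p = 0.199). It passed the limits of the study without WT library 1 (-0.61) or without KO-labelled library 1 (-0.67). A same-strand transcript that the count table does not list overlaps 808 bases of *Ctsd* exons. *Lgmn*, the asparaginyl endopeptidase legumain that activates other cathepsins, had 55.0, 63.1 and 83.1 CPM against 56.5, 82.1 and 52.4 CPM. This was an overlap over nearly the whole range, with a log2 fold change of -0.08 (edgeR adjusted p = 0.895). *Tpp1*, a tripeptidyl peptidase, had 109, 108 and 119 CPM against 106, 108 and 106 CPM. Its groups were separated only by decimals, and the log2 fold change was -0.07 (edgeR adjusted p = 0.725).

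**Figure D4:**
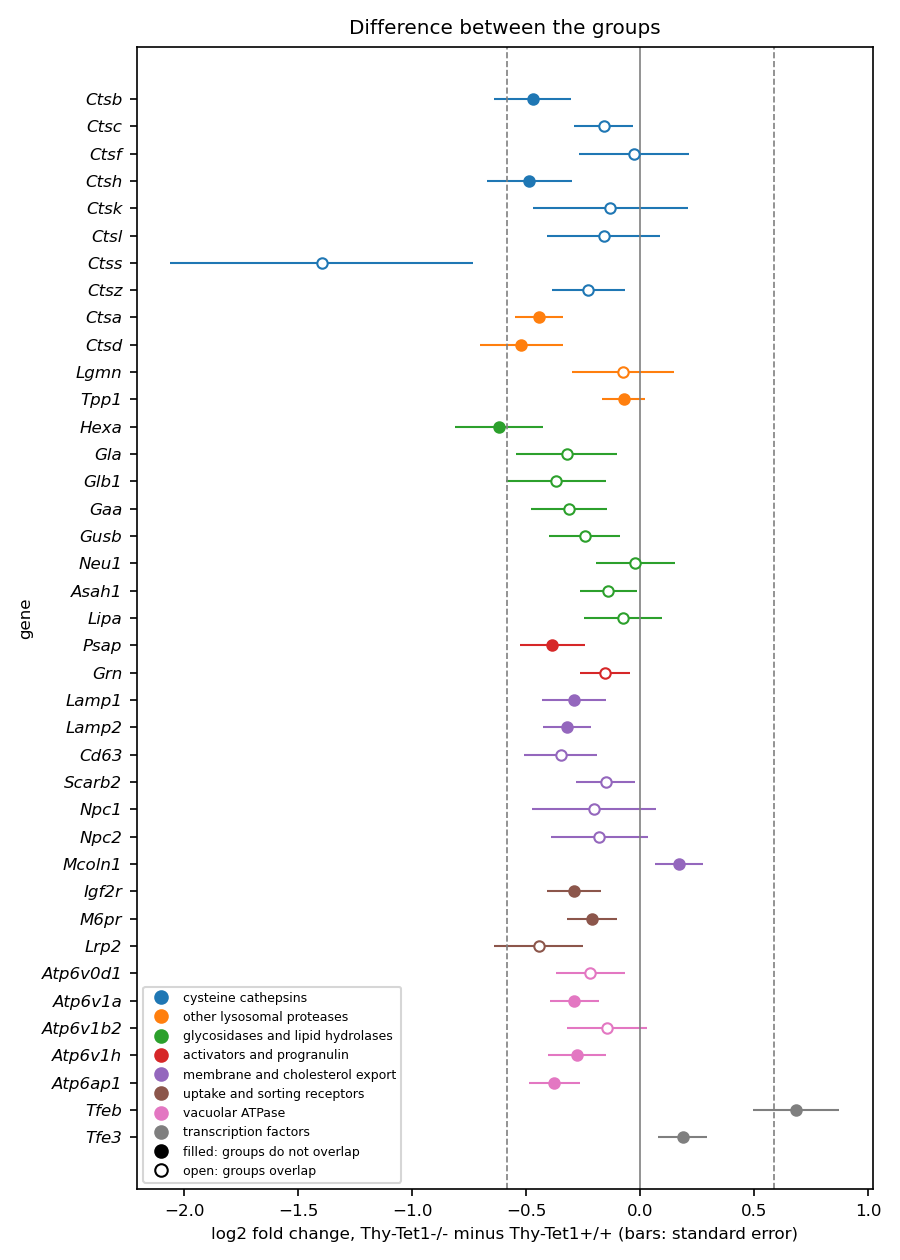
Log2 fold change (x axis, KO-labelled minus WT, with standard error bars) of each of the 39 genes (y axis, coloured by role), filled where the WT and KO-labelled values did not overlap, with dashed lines at a fold change of 1.5 in either direction. With TMM scaling 36 points lie left of 0 and most lie between 0 and -0.52, with *Ctss* at -1.40, *Hexa* at -0.62 and *Tfeb* at 0.68 outside the dashed lines.

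All 8 glycosidases and lipid hydrolases had log2 fold changes below the median of all tested genes, and *Hexa* was the 1 called. *Lipa* lay above that median without WT library 1, and *Neu1* without WT library 3 or KO-labelled library 2 or 3. *Hexa* (NCBI gene 15211, chr9:59539540-59565109, plus strand, mm10) encodes the alpha subunit of hexosaminidase A, the enzyme lost in Tay-Sachs disease. It had 125, 166 and 183 CPM in WT against 125, 94.9 and 89.1 CPM in KO-labelled libraries. The lowest WT and the highest KO-labelled value were almost equal, and the KO-labelled mean was 65.1% of the WT mean. The log2 fold change was -0.62 with a standard error of 0.19 (edgeR adjusted p = 0.172, DESeq2 adjusted p = 0.0510). The call was lost without WT library 2 (-0.58) or 3 (-0.50), without KO-labelled library 2 (-0.57) or 3 (-0.53), with library totals (-0.43) and with the epithelial scaling (-0.23). Over all alternatives its adjusted p was 0.0510 to 0.609.

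The other 7 hydrolases had overlapping groups, and their log2 fold changes were -0.37 to -0.02. *Glb1* (beta-galactosidase), *Gla* (alpha-galactosidase A), *Gaa* (acid alpha-glucosidase) and *Gusb* (beta-glucuronidase) had the lower ones, at -0.37, -0.32, -0.31 and -0.24. *Asah1* (acid ceramidase), *Lipa* (lysosomal acid lipase) and *Neu1* (neuraminidase) had -0.14, -0.08 and -0.02. Their edgeR adjusted p ranged from 0.357 for *Gaa* to 0.962 for *Neu1*.

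*Psap* (NCBI gene 19156), the precursor of the saposins that present sphingolipids to hydrolases, had 1204, 1506 and 1317 CPM in WT against 1108, 1004 and 969 CPM in KO-labelled libraries. The groups did not overlap with TMM scaling, and the log2 fold change was -0.39 with a standard error of 0.14 (edgeR adjusted p = 0.216). With the epithelial scaling the difference was -0.00. *Grn*, encoding progranulin, overlapped between the groups, with a log2 fold change of -0.16.

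The membrane genes *Lamp1* and *Lamp2*, whose glycoproteins line the lysosome, were lower in every KO-labelled library than in any WT library with TMM scaling. *Lamp2* (NCBI gene 16784, chrX:38401357-38456454, minus strand, mm10) had 493, 499 and 484 CPM in WT against 397, 392 and 392 CPM in KO-labelled libraries. Relative to the mean, this was the smallest spread within both groups among the 9 genes with the highest level per kilobase, at 492 ± 7.64 CPM (SD, n = 3) and 394 ± 3.15 CPM (SD, n = 3). The log2 fold change was -0.32 with a standard error of 0.11 (edgeR adjusted p = 0.183, DESeq2 adjusted p = 0.00327), and 0.04 with the epithelial scaling. *Lamp1* (NCBI gene 16783) had 550, 664 and 696 CPM against 548, 533 and 479 CPM, with WT library 1 hardly above KO-labelled library 1. Its log2 fold change was -0.29 (edgeR adjusted p = 0.320).

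*Cd63*, a tetraspanin of late endosomes and exosomes, had 257, 318 and 359 CPM in WT against 271, 233 and 230 CPM in KO-labelled libraries. The groups overlapped through WT library 1, and the log2 fold change was -0.35 (edgeR adjusted p = 0.292). *Scarb2*, an integral protein of the lysosomal membrane, and the cholesterol exporters *Npc1* and *Npc2* overlapped as well, with log2 fold changes of -0.15, -0.20 and -0.18. *Npc1* was most uneven within WT, from 29.3 to 64.0 CPM. It lay above the median of all tested genes without WT library 2, and *Npc2* did so without KO-labelled library 3.

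All 5 vacuolar ATPase genes had log2 fold changes below the median of all tested genes, and their median was -0.28 under TMM. The limits of the study called 0 of them (2 had an unadjusted edgeR p under 0.05). *Atp6ap1* (NCBI gene 54411), an accessory subunit needed for assembly of the pump, had 242, 248 and 260 CPM in WT against 197, 204 and 177 CPM in KO-labelled libraries. *Atp6v1a*, the catalytic subunit, had 191, 198 and 202 CPM against 155, 174 and 154 CPM. *Atp6v1h*, a regulatory subunit, had 91.7, 88.6 and 103 CPM against 85.4, 80.5 and 67.6 CPM. These 3 had groups without overlap with TMM scaling, and for the first of them the WT values spanned less than the gap to the KO-labelled ones. Their log2 fold changes were -0.38, -0.29 and -0.28 (edgeR adjusted p = 0.154, 0.216 and 0.292, and DESeq2 adjusted p = 0.0150, 0.0763 and 0.300). *Atp6v0d1* of the membrane sector and *Atp6v1b2* of the cytosolic sector overlapped, with log2 fold changes of -0.22 and -0.15.

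Summed over the 39 genes, the TMM-scaled level was 8444, 9467 and 9502 CPM in WT against 7787, 7335 and 6713 CPM in KO-labelled libraries, without overlap, whereas as a share of all counts it was 0.803%, 0.888% and 0.879% against 0.834%, 0.745% and 0.748% and overlapped. The genes were not uniformly lowest in the same library. KO-labelled library 3, which had the highest lymphocyte sum, held the lowest value of 19 of the 39 genes, and WT library 1, with the next highest, held the lowest value of 8 and the highest of 8. Without KO-labelled library 3 the median log2 fold change was -0.22, and 32 of 39 log2 fold changes lay below the median of all tested genes. Without WT library 1 these values were -0.30 and 35. The number of lysosomal genes past the limits of the study was 4 without WT library 1 or without KO-labelled library 1, and 1 without WT library 3 or without KO-labelled library 2.

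Levels were compared between genes per kilobase of transcript. In the WT libraries *Psap*, at 505 ± 57.5 CPM per kb (SD, n = 3), and *Ctsd*, at 496 ± 67.5 CPM per kb (SD, n = 3), were highest and did not differ beyond their spread. *Ctsl* (316 CPM per kb), *Cd63* (299) and *Lamp1* (285) followed with overlapping values, and then *Lamp2* (225), *Ctsb* (186), *Npc2* (148) and *Atp6ap1* (114), each separate from its neighbours in the order. From *Ctsa*, at 98.8 CPM per kb, down to *Tpp1*, at 31.5 CPM per kb, every gene overlapped the next. Lowest were *Tfeb* (7.45 CPM per kb), *Ctsk* (5.07) and *Gla* (3.41). The first 9 genes had the same order of mean levels in the KO-labelled libraries, *Ctss* went from rank 17 to rank 27 and *Tfeb* from rank 37 to rank 33. Among the thyroglobulin-cleaving enzymes *Ctsd* and *Ctsl* were thus among the 3 highest genes per kilobase and *Ctsk* among the 2 lowest.

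**Figure D5:**
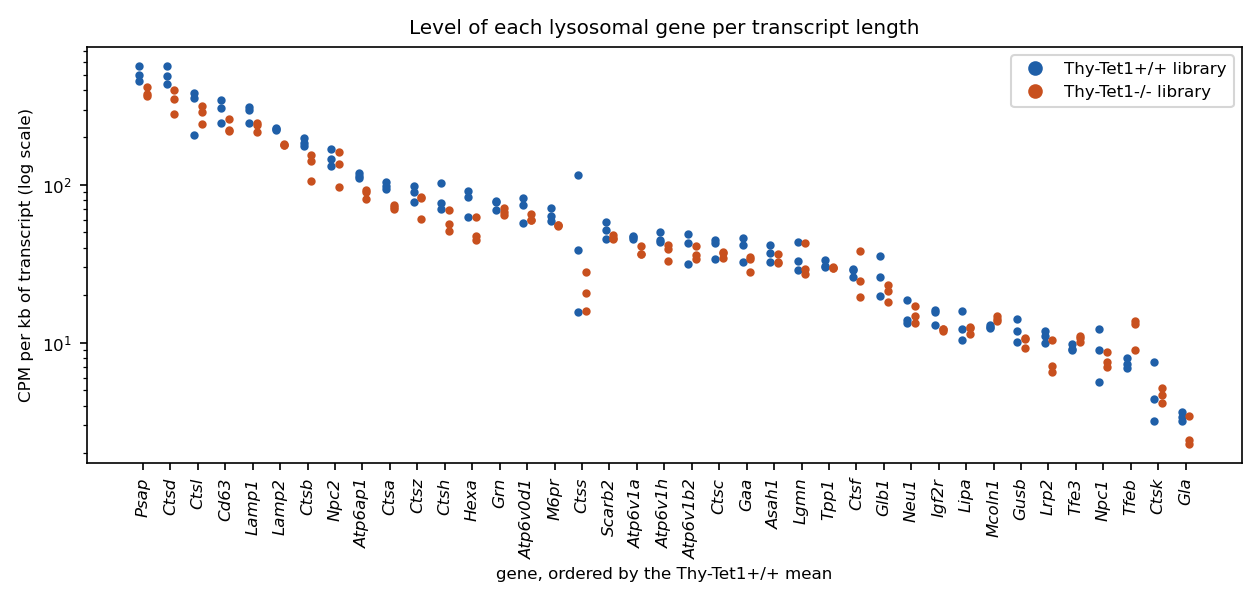
Level of each of the 39 genes (x axis, ordered by the WT mean) in each library (y axis, CPM per kb of transcript, log scale), with WT libraries in blue and KO-labelled libraries in orange. The genes run from *Psap* at 505 to *Gla* at 3.41 CPM per kb in WT, the points of *Ctss* spread most widely, and those of *Tfeb* are higher in orange.

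*Tg* (NCBI gene 21819), the substrate of this proteolysis, had 252545, 313526 and 285466 CPM in WT against 205038, 236379 and 190551 CPM in KO-labelled libraries. Its groups did not overlap with TMM scaling, and its log2 fold change was -0.43 with a standard error of 0.18 (edgeR adjusted p = 0.262), close to those of *Ctsb* and *Ctsd*. Reads of all 39 genes were therefore also expressed per 1000 *Tg* reads of the same library, which needs no scaling. *Ctsb* then had 3.15 ± 0.524 in WT and 3.02 ± 0.496 in KO-labelled libraries (SD, n = 3 each). *Ctsd* had 3.73 ± 0.459 and 3.50 ± 0.584, and *Ctsl* 2.17 ± 0.471 and 2.69 ± 0.620. For these, and also for *Ctsk*, *Ctss*, *Lgmn* and *Lrp2*, the groups overlapped. Of the 39 ratios 0 were lower in the KO-labelled libraries without overlap, against 1.03% of all tested genes, and 6 (*Tpp1*, *Asah1*, *Grn*, *Mcoln1*, *Tfeb* and *Tfe3*) were higher, which is 15.4% against 37.7% of all tested genes.

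A further 104 genes of the lysosome pathway outside the 39 were examined in the same fit, and 98 of them were tested. The study's limits were passed by 6 of the 98, 3 higher and 3 lower with TMM scaling, or by 15 (15.3%) with the epithelial scaling, 13 higher and 2 lower, where 18.0% of all tested genes were called and 95.9% of these were higher. The share of 6.12% under TMM compares with 9.2% of all tested genes. An adjusted p under 0.05 from edgeR was reached by 0 of them, where it was reached by 0.113% of all tested genes. An unadjusted edgeR p under 0.05 was reached by 22 of the 98, where it was reached by 18.9% of all tested genes. Their median log2 fold change was -0.12 with TMM. Groups without overlap were found in 31 of 98 (31.6%), 24 lower and 7 higher. Among all tested genes this share was 26.8%, with 14.4% lower and 12.5% higher.

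Higher were *Flcn*, *Tpcn2* and *Ppt2*. *Flcn* (NCBI gene 216805) encodes folliculin, which is known to keep TFEB and TFE3 out of the nucleus, and had 40.1, 47.8 and 60.6 CPM in WT against 93.6, 63.3 and 76.8 CPM in KO-labelled libraries. Its log2 fold change was 0.65 with a standard error of 0.20 (edgeR adjusted p = 0.170), and 0.52 without WT library 1 or 0.48 without KO-labelled library 1, where the call was lost. *Tpcn2*, a cation channel of the lysosomal membrane, had 7.0, 6.41 and 7.71 CPM against 11.2, 9.06 and 12.2 CPM (log2 fold change 0.62, edgeR adjusted p = 0.185), and lost its call without WT library 2 (0.55), KO-labelled library 1 (0.57) or KO-labelled library 3 (0.52). *Ppt2*, a thioesterase, had 7.71, 6.63 and 10.4 CPM against 10.8, 12.7 and 15.7 CPM (log2 fold change 0.67, edgeR adjusted p = 0.221), and lost it without WT library 1 (0.62) or 2 (0.52) or KO-labelled library 2 (0.68) or 3 (0.50). In all 3 genes every KO-labelled library was above every WT library.

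Of the 3 lower genes, *Napsa* and *Cst6* are described. *Napsa* (NCBI gene 16541), an aspartic protease of epithelial lysosomes, had 179, 503 and 386 CPM in WT against 135, 152 and 178 CPM in KO-labelled libraries, without overlap, and a log2 fold change of -1.20 with a standard error of 0.36 (edgeR adjusted p = 0.158). *Cst6*, a secreted inhibitor of legumain and cysteine cathepsins, had 4.03, 17.5 and 14.3 CPM against 5.61, 2.72 and 2.64 CPM. Its groups overlapped through WT library 1, and its call at -1.72 (edgeR adjusted p = 0.191) was lost without WT library 2 (-1.34) or 3 (-1.57) and without KO-labelled library 2 (-1.56) or 3 (-1.54).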

How the data were processed

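RNA-seq of 6 thyroid libraries was analysed. The authors deposited raw counts per gene for 21878 genes (build mm10 per the labels). Libraries were made from poly(A) RNA with a strand-keeping kit, though the protocol text mentions retinas, and the aligner and counting program are not given in the sources used here. The table had 27 symbols turned into dates, which were restored from NCBI gene identifiers. Libraries were grouped by their labels, and replicates of each group differed beyond sampling noise, so none was counted as a duplicate. Nothing says that replicates were processed separately beyond being separate mice.

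Testing used edgeR 4.0.16 under R 4.3.3 (filterByExpr, TMM, quasi-likelihood test, Benjamini-Hochberg adjustment over 14143 genes), and CPM used TMM-scaled library sizes. The code was tested on simulated data with 200 changed genes. Transcript lengths and positions came from GENCODE M21. The alternatives were RLE size factors, DESeq2 1.42.0, limma 3.58.1 (voom), no filter, a filter that asks every library for 10 counts or more, 10 epithelial genes as the scaling set, the replicate number as a block, and omission of single libraries. Library totals as scaling were chosen after seeing the data.

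The 39 genes, the wider list and the markers were chosen with earlier results of these data known, so no set test was made. Full values are given for genes past the study's limits, genes without overlap, the thyroglobulin-degrading proteases, *Lrp2*, the transcription factors, and *Cd63*, *Psap*, *Lamp1* and *Lamp2*, with at most 10 of the wider list. Results for some genes are not reported here.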

Additional observations from a re-analysis of the deposited data

How the results depend on the processing

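The count of lysosomal genes past the study's limits was 2 with RLE size factors, DESeq2, limma-voom, no filter and the stricter filter, and 1 with the epithelial scaling and with library totals. With DESeq2, 4 lysosomal genes had an adjusted p under 0.05. The epithelial scaling gave 2543 called genes in all against 1301 (95.9% against 60.2% of them higher), 15 of the wider list, and a median log2 fold change of the lysosomal genes of 0.13. Library totals, an alternative chosen after seeing the data, gave a median of -0.048 and 86.1% of calls higher. With single libraries left out the count ranged from 1 to 4 and the median from -0.30 to -0.22. TCACGTGA and the CLEAR consensus were in 21.9% and 3.12% of the lysosomal promoters, against 40.6% for CACGTG. No log2 fold change of a called gene reversed. The cause of these shifts was not tested.

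With the replicate number as a block, 2 lysosomal genes (*Hexa* and *Tfeb*, as without it) and 1145 genes in all passed the study's limits, the median was -0.23, 0 lysosomal genes had an adjusted p under 0.05 and 6 an unadjusted one, and the call of *Cst6* was lost (-1.63). Deviations of same-numbered libraries from their group means correlated at -0.17, -0.37 and -0.19, so they showed no positive correlation. Whether same-numbered mice shared a litter or a processing step was not tested and is not given in the sources used here.

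The biological coefficient of variation across genes was 0.327, and the rarest lysosomal gene had 41 reads or more in each library. How far spread and depth each limit these comparisons was not tested.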

Other observations

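A group of genes from the wider list was picked after their values had been seen, and gets no test as a group. The enzymes that degrade heparan sulfate, whose losses cause the mucopolysaccharidoses, include *Hgsnat*, *Naglu*, *Sgsh*, *Ids* and *Idua*. *Hgsnat*, the membrane acetyltransferase of the lysosome, had 73.5, 82.3 and 88.7 CPM in WT against 55.1, 53.2 and 58.7 CPM in KO-labelled libraries (log2 fold change -0.55, edgeR adjusted p = 0.0965, DESeq2 adjusted p = 0.00235). *Naglu*, *Sgsh* and *Ids* had log2 fold changes of -0.40, -0.45 and -0.32. *Idua* was the exception, with 15.5, 20.4 and 20.2 CPM against 21, 20 and 20.8 CPM and a log2 fold change of 0.14 (edgeR adjusted p = 0.667). In each of the other 4 genes, with TMM scaling, all KO-labelled libraries lay below all WT libraries, as did 14.4% of all tested genes.

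Endocytic genes chosen in the same way went both ways. *Lrp1*, a large receptor of the megalin family, had 98.4, 105 and 78.6 CPM in WT against 151, 132 and 133 CPM in KO-labelled libraries (log2 fold change 0.57, edgeR adjusted p = 0.118), while *Lrp2* had -0.45, and the difference between both genes was not tested. *Dab2*, an adaptor of that family, had 27.2, 29.1 and 31.2 CPM against 42.0, 40.1 and 37.8 CPM (log2 fold change 0.46, edgeR adjusted p = 0.117). *Rab5a*, a GTPase of early endosomes, had 100.2, 95.6 and 102 CPM against 78.7, 75.7 and 75.8 CPM (log2 fold change -0.37, edgeR adjusted p = 0.117). The groups of *Lrp1*, *Dab2* and *Rab5a* did not overlap with TMM scaling, and with the epithelial scaling the value for *Rab5a* was close to 0, at -0.01.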
